A study of Arabidopsis thaliana with 18 samples.

Results

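Membrane transporter and channel genes were examined in Arabidopsis thaliana seedlings in which the transcription factor DUO1 was switched on outside its normal place. The genes were taken by name, as probe sets assigned to exactly 1 gene whose symbol begins with a transporter or channel family name and a number, with NRT2.5 left out. This gave 35 probe sets for 35 genes, out of 22746 probe sets tested. They comprise 14 SWEET, 7 CHX, 7 GLR, 3 OCT and 2 ZIP genes, MTP11 and PUP15. For 16 of the 23 families in the naming rule no gene entered the set. For NRT this is because NRT2.5 was left out. For the others no probe set carried a matching symbol of its own in the annotation used here. The 35 genes are therefore a part of the transport genes of the plant.

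All samples were whole plants of background Col-0 carrying pMDC7DUO1, a transgene in which an inducible promoter drives DUO1, a MYB protein that normally acts in the male germline of pollen. Plates were first kept at 4 °C for 3 days. Plants then grew for 12 days in constant light at 22 °C on medium with no added carbon source, were either induced or not induced and were sampled at 6 h, 12 h and 24 h. Each of the 6 groups, induced and not induced at 3 times, held 3 ATH1 arrays, an Affymetrix array with several short probes per gene. The not induced plants carried the same transgene, and no group received the inducer without the transgene, so DUO1 and the inducing treatment cannot be told apart. The number of independent lines is not given in the sources used here.

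Plants move sugars, metals, organic cations and other ions across their membranes with large families of such proteins. SWEET proteins let sugars pass down their gradient, and are known for sucrose export from leaves into the phloem and for sugar exchange across the vacuolar membrane. ZIP and MTP proteins carry metal ions, OCT proteins carry carnitine and other organic cations, CHX proteins exchange cations for protons, GLR proteins are glutamate receptor-like calcium-permeable channels, and PUP proteins carry purines and related compounds.

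Values are MAS5 signals on a linear scale, scaled so that each array has the same trimmed mean of 100. The array medians lay between 34.3 and 39.5. The background level of an array, taken as the highest signal among 27 control probe sets for transcripts that were not added, lay between 3.302 and 10.1, and 72.3% to 83.6% of the probe sets of an array lay above it. The signals of 18 spiked hybridisation controls set some arrays apart: their geometric mean was 490, 268 and 246 on the induced arrays and 444, 430 and 361 on the not induced arrays at 6 h, and 245, 477 and 405 on the induced arrays and 295, 251 and 211 on the not induced arrays at 24 h. The 12 h arrays lay between 240 and 308. With this signal as a covariate each of the 35 genes called at 12 h or 24 h was called again at that time, and SWEET1 was added at 24 h; the F test call of CHX16, the 24 h call of TMT1 and the call on the fall of SWEET4 with time were lost. Signals of different probe sets have no common scale, and changes are read only between arrays. Where signals of marker genes are summed, the brightest probe set weighs most, and the sums are compared only between arrays.

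How well the genes could be read differed widely. Of the 35 genes, 16 (45.7%) lay above background on all 18 arrays, against 15008 (66.0%) of all probe sets tested. These 16 were SWEET1, SWEET2, SWEET4, SWEET11, SWEET13, SWEET16, SWEET17, CHX16, CHX20, GLR1.4, GLR3.3, GLR3.6, MTP11, OCT4, OCT5 and ZIP6. Another 8 genes lay above background on 10 to 17 arrays (CHX19, GLR2.7, GLR2.8, GLR3.5, PUP15, SWEET9, SWEET14 and ZIP9). A further 8 did so on 1 to 9 arrays (CHX6B, GLR2.9, OCT1, SWEET3, SWEET6, SWEET7, SWEET8 and SWEET10), and CHX15, CHX21 and chx28 lay at background on every array. The spread between replicate arrays was narrower for the genes above background on all arrays than for most of the others. It was 0.130 to 0.404 on the log2 scale for the first 16 genes (median 0.216), 0.304 to 1.65 for the next 8 (median 0.658), 1.02 to 1.71 for the genes on 1 to 9 arrays (median 1.22) and 0.838 to 1.36 for the last 3.

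**Figure D1:**
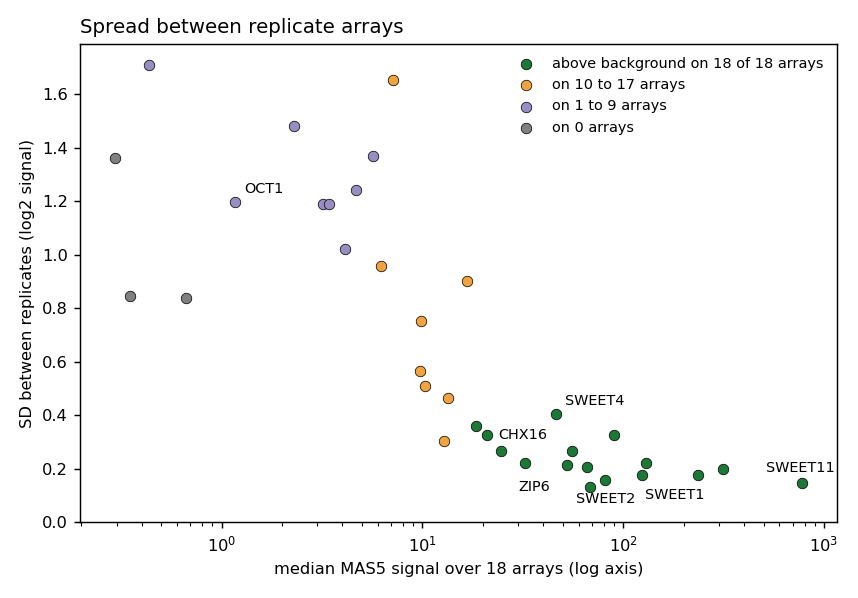
Spread between replicate arrays (pooled SD of the log2 signal, vertical axis) against the median MAS5 signal over 18 arrays (horizontal log axis), 1 point per gene, coloured by the number of arrays above background. The 16 genes above background on all arrays have SDs of 0.130 to 0.404, and the genes at background on most arrays reach 1.71.

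The first question was which of these genes changed when DUO1 was induced. ZIP6 and OCT1 rose at 12 h and 24 h, SWEET4 rose at 24 h, SWEET2 fell at 12 h and 24 h, and CHX16 fell at 12 h. On induction, rose and fell mean higher and lower than in not induced plants of the same time. None passed the test at 6 h. In limma, with p-values adjusted by Benjamini and Hochberg over all probe sets and a threshold of 0.05, 0 of 35 genes were called at 6 h, where 0.967% of all probe sets were called. At an unadjusted p under 0.05 there were 4 of 35 genes at 6 h, and 2963 of all 22746 probe sets, and the lowest adjusted p was 0.100, for ZIP6. At 12 h 4 of 35 were called, 2 up and 2 down, against a background of 4.84%, and at 24 h 4 of 35, 3 up and 1 down, against a background of 8.33%. Over all times, by an F test, 6 were called, which adds SWEET1, against a background of 10.5%. The median log2 change of the 35 genes was -0.03, 0.05 and -0.02 at 6 h, 12 h and 24 h, and that of all probe sets tested was 0.04, 0.04 and 0.02.

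**Figure D2:**
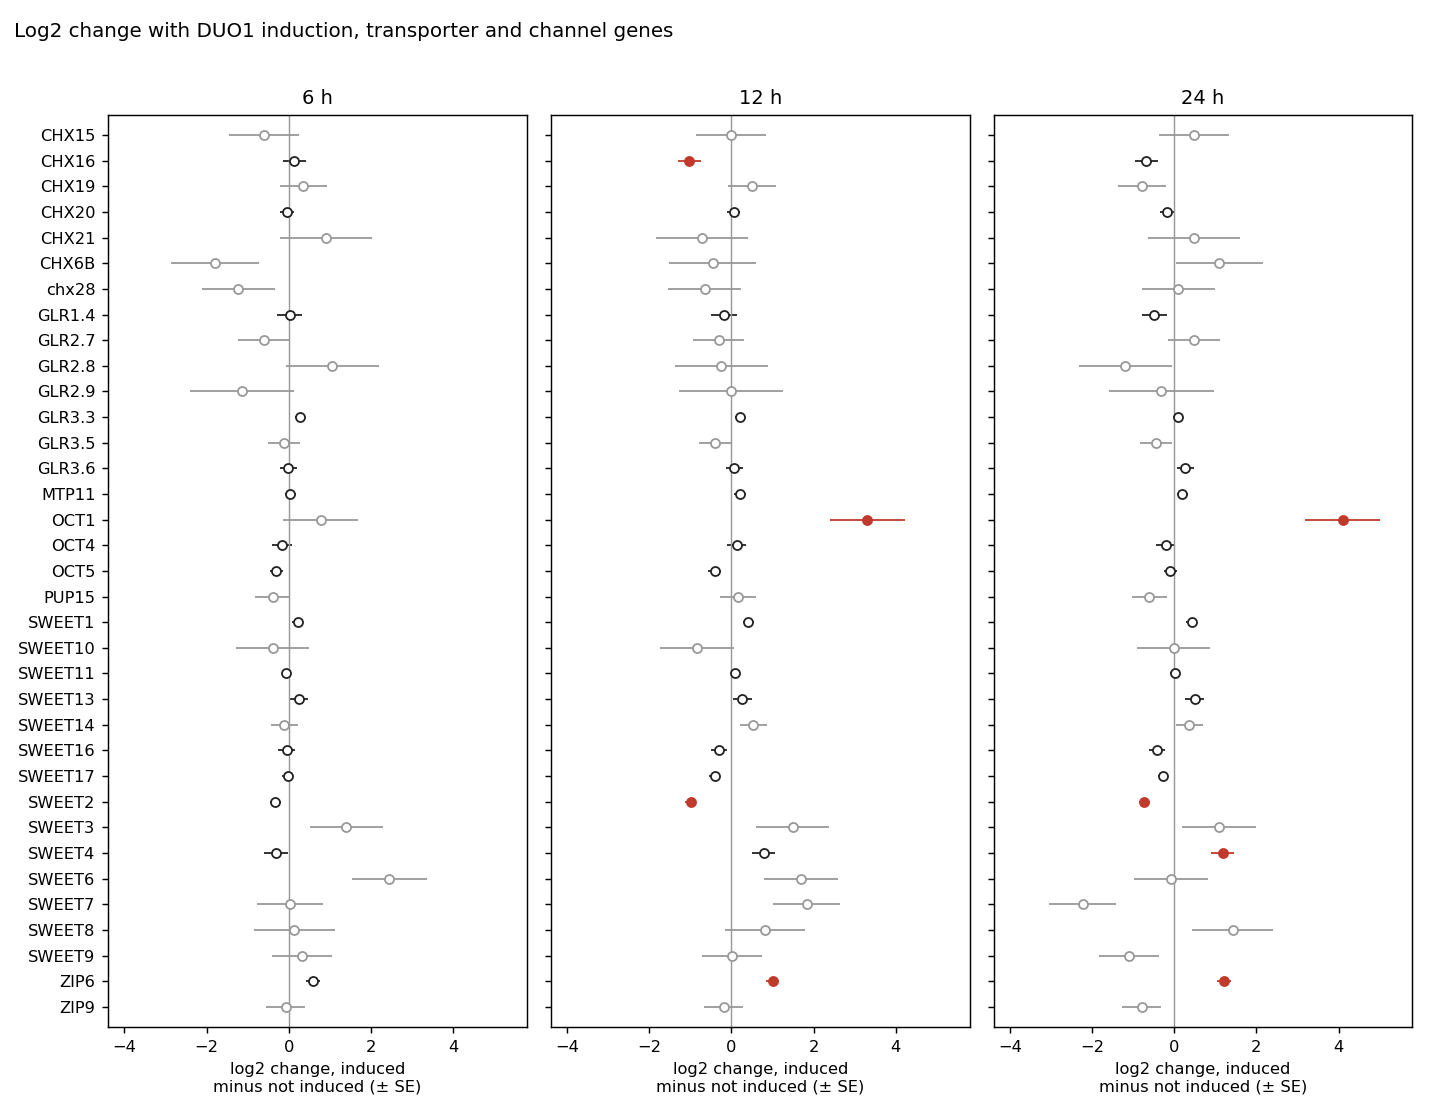
Log2 change, induced minus not induced, with its standard error, for the 35 genes at 6 h, 12 h and 24 h. Filled red points have an adjusted p under 0.05 in limma, and open grey points are genes not called that were at background on at least 1 of 18 arrays. No point is red at 6 h, and 4 are red at 12 h and 4 at 24 h.

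ZIP6 (AT2G30080), of the family of zinc and iron transporters, rose at 12 h and 24 h. At 6 h its signals were 46.6, 64.9 and 78.4 in induced plants, against 44.8, 40.7 and 37.7 in not induced plants. At 12 h they were 98.7, 103 and 105 in induced plants, against 53.5, 49.1 and 51.0 in not induced plants. At 24 h they were 109, 82.0 and 96.9 in induced plants, against 48.5, 41.7 and 34.4 in not induced plants. At each time the lowest induced array lay above the highest not induced array, by a small margin at 6 h and a wide one later. The log2 change was 0.60 ± 0.17 (SE, adjusted p = 0.100) at 6 h, 1.00 ± 0.17 (adjusted p = 0.000897) at 12 h and 1.21 ± 0.17 (adjusted p = 6.85e-05) at 24 h, all from limma. The 12 h means were 102 ± 3.32 in induced plants and 51.2 ± 2.19 in not induced plants (SD, n = 3 each), a 2.00-fold difference, and at 24 h the difference was 2.32-fold. The calls at 12 h and 24 h were kept in all 28 alternatives. At 6 h ZIP6 was called with array weights and without induced 6 h replicate 1, its lowest induced array.

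The other ZIP gene measured, ZIP9 (AT4G33020), had signals of 8.72, 6.08 and 4.95 in induced plants and 10.2, 10.4 and 12.7 in not induced plants at 24 h. The groups did not overlap, and 2 of the 3 induced arrays were at background. Its log2 change of -0.79 ± 0.48 did not pass the test (adjusted p = 0.384, limma). MTP11 (AT2G39450), a manganese transporter, had 317 ± 17.4 in induced plants and 277 ± 31.7 in not induced plants at 24 h (SD, n = 3 each). Its log2 change was 0.20, with a 95% interval of -0.10 to 0.50, and its values overlapped at all 3 times.

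OCT1 (AT1G73220), a carnitine transporter of the plasma membrane, was at background on all 9 arrays but 1 of the not induced plants. At 24 h its signals were 7.10, 15.8 and 11.6 in induced plants, against 0.722, 0.625 and 0.568 in not induced plants, all 3 of which were at background. The rise was at least 2.49-fold, set by the background level of the not induced arrays (adjusted p = 0.00661, limma), and this call was kept in all 27 alternatives that tested the gene. At 12 h its signals were 14.2, 26.8 and 11.7 in induced plants, against 6.03, 0.978 and 0.771 in not induced plants, 2 of them at background. The groups were apart, but the 12 h call (adjusted p = 0.0402, limma) was lost in 10 of 27 alternatives, with an adjusted p up to 0.190, namely quantile normalization, no intensity trend, the replicate number in the fit, and leaving out any of the 3 induced 12 h arrays, not induced 12 h replicate 2 or 3, or induced 24 h replicate 2 or 3. At 6 h 1 of 3 induced arrays, at 7.90, was above background and the others, at 0.715 and 0.498, were not, and the not induced arrays were at 0.511, 1.36 and 0.806.

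The other OCT genes, OCT4 and OCT5 of the vacuolar membrane, were above background on all arrays. OCT5 (AT1G79410) had 115, 96.1 and 129 in induced plants at 12 h, against 129, 135 and 193 in not induced plants, and its log2 change of -0.41 ± 0.16 did not pass the test (adjusted p = 0.166, limma). At 24 h it had 117 ± 9.64 in induced plants and 125 ± 10.4 in not induced plants (SD, n = 3 each), with a 95% interval of the log2 change of -0.42 to 0.23. OCT4 overlapped between the groups at all times, with signals of 19.9 to 38.1 over the 18 arrays. Its log2 changes lay between -0.21 and 0.12.

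Among the 14 SWEET genes 1 was called at 12 h and 2 at 24 h, where 4.84% and 8.33% of all probe sets were called. SWEET2 (AT3G14770), which lies in the vacuolar membrane and is known for holding sugar in roots, fell. At 6 h its signals were 97.1, 86.5 and 109 in induced plants, against 128, 120 and 119 in not induced plants. At 12 h they were 50.2, 56.9 and 51.2 in induced plants, against 94.5, 93.5 and 129 in not induced plants. At 24 h they were 39.6, 50.7 and 41.1 in induced plants, against 76.4, 69.3 and 71.6 in not induced plants. Every induced array lay below every not induced array of its time. The log2 change was -0.33 ± 0.13 (adjusted p = 0.291) at 6 h, -0.99 ± 0.13 (adjusted p = 9.72e-05) at 12 h and -0.73 ± 0.13 (adjusted p = 0.00117) at 24 h, by limma. The signal of induced plants was 0.505 times that of not induced plants at 12 h and 0.601 times at 24 h. Both calls were kept in all 28 alternatives.

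Marker genes are called measured where a probe set was named with that gene alone in the annotation used here; the 8730 unnamed probe sets may hold further ones. Of 8 root hair markers 2 were measured, the expansin genes EXPA7 and EXPA18, and both were lower in induced plants at all 3 times. Their summed signal was 27.1 to 38.5 in induced plants against 61.0 to 71.4 in not induced plants at 6 h, 21.1 to 39.4 against 62.5 to 77.7 at 12 h, and 26.3 to 35.04 against 89.9 to 118 at 24 h. EXPA7 was at background on 1 of 3 induced arrays at 6 h and at 12 h. The part of root hairs in the fall of SWEET2, or in any other change given here, was not tested, and in whole plants fewer cells of a type and less RNA per cell cannot be told apart. Of 7 leaf mesophyll markers 3 were measured and of 5 guard cell markers 1 was, and none of these 4 passed the test on induction at any time. No named probe set matched any of 7 endodermis and stele markers or of 3 phloem companion cell markers, so these cell types were not analysed here. Of 5 sperm cell markers 3 were measured. MGH3 and TET11 rose at all times, while TET12 was not called and had log2 changes of -2.325, -1.996 and -1.177 at 6 h, 12 h and 24 h, with 2, 3 and 2 of 3 induced arrays and 1, 3 and 0 of 3 not induced arrays at background. The summed signal of the 3 was 178 to 275, 553 to 592 and 624 to 858 in induced plants at 6 h, 12 h and 24 h, against 7.43 to 21.5, 6.79 to 14.4 and 10.3 to 11.9 in not induced plants. Of 7 pollen markers 4 were measured, and 1 of these, ACT11, rose, at 12 h and 24 h. ANX1 and ANX2 were at background on all 18 arrays and ACT12 on 17, and none of these 3 was called at any time. The summed signal of the 4, most of it from ACT11, was 121 to 144, 133 to 173 and 168 to 213 in induced plants against 103 to 117, 98.1 to 112 and 79.7 to 90.0 in not induced plants. Their part in the changes of the transport genes was not tested.

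SWEET4 (AT3G28007), which carries hexoses, was the 1 SWEET gene called as higher in induced than in not induced plants at a single time. Its signals were 35.5, 46.3 and 51.2 in induced plants at 24 h, against 22.9, 25.0 and 12.6 in not induced plants. At 12 h they were 50.1, 52.6 and 45.9 in induced plants, against 40.8, 32.1 and 18.2 in not induced plants. At 6 h they were 45.8, 73.9 and 64.0 in induced plants, against 78.4, 92.2 and 57.1 in not induced plants. The groups overlapped at 6 h and were apart at 12 h and 24 h. The log2 change was -0.31 ± 0.29 (adjusted p = 0.700) at 6 h, 0.78 ± 0.29 (adjusted p = 0.145) at 12 h and 1.18 ± 0.29 (adjusted p = 0.0115) at 24 h, by limma. The 24 h call was lost without induced 24 h replicate 3 and without not induced 24 h replicate 3, with an adjusted p up to 0.0882.

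The level of SWEET4 in plants that were not induced also changed with time. It averaged 75.9 ± 17.6, 30.3 ± 11.4 and 20.2 ± 6.64 at 6 h, 12 h and 24 h without induction (SD, n = 3 each), and the fall at 12 h relative to 6 h was -1.37 ± 0.29 on the log2 scale (adjusted p = 0.0120, limma). In induced plants the means were 61.2 ± 14.3, 49.5 ± 3.42 and 44.3 ± 8.03 at the same times. The response at 24 h minus that at 6 h was 1.49 on the log2 scale, with a 95% interval of 0.65 to 2.33 and an adjusted p of 0.0683 over all probe sets (limma), so a difference in response between these times did not pass the threshold.

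**Figure D3:**
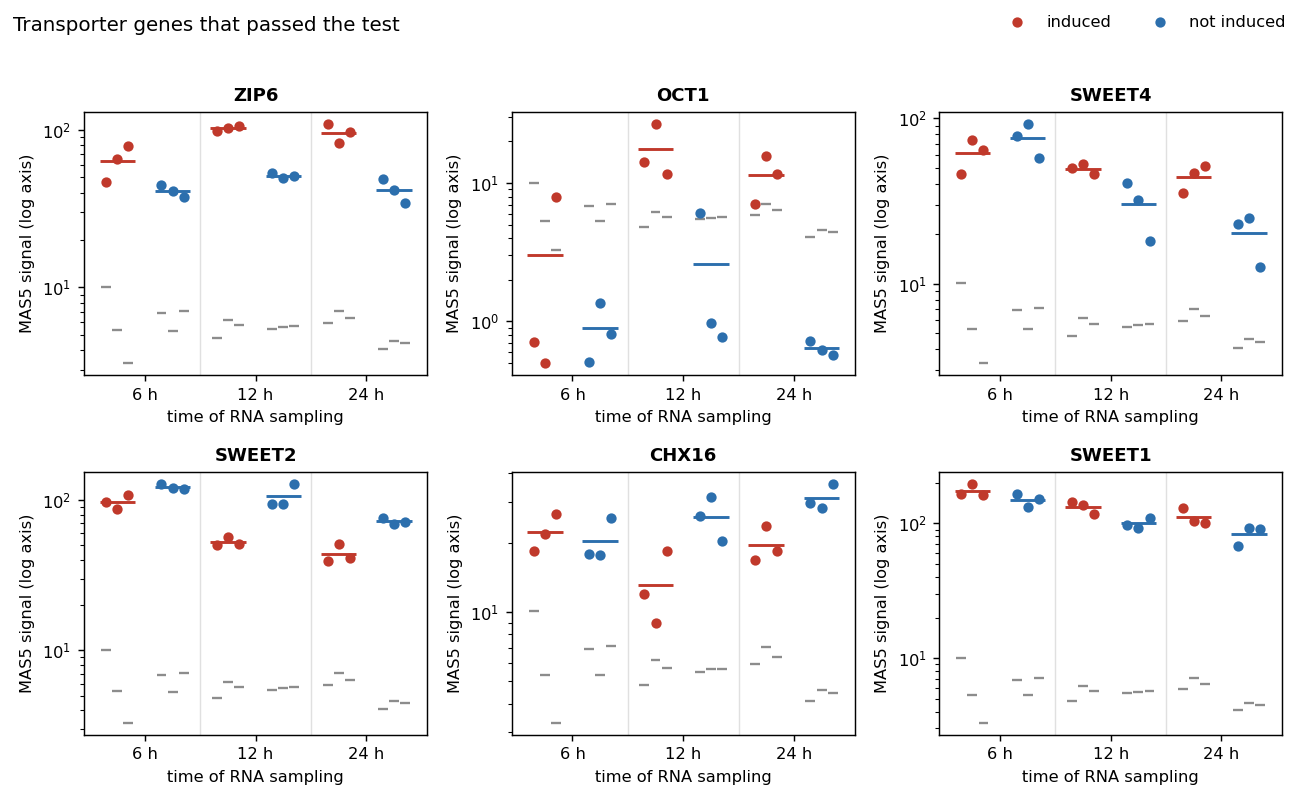
MAS5 signals (log axis) of the 6 genes called in the F test, by time (horizontal axis, h), in induced (red) and not induced (blue) plants. Dots are arrays, lines are means of 3 arrays and grey ticks are the background levels of the arrays. ZIP6 and OCT1 are higher in induced plants at 12 h and 24 h, SWEET2 is lower, and for SWEET4 the not induced means fall with time to 20.2 while the induced means lie between 44.3 and 61.2.

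SWEET1 (AT1G21460), a glucose transporter, was called in the F test (adjusted p = 0.0238, limma) without passing at any single time. Its signals were 165, 198 and 162 in induced plants and 165, 134 and 152 in not induced plants at 6 h. At 12 h they were 144, 137 and 118 in induced plants, against 97.8, 93.0 and 109 in not induced plants. At 24 h they were 129, 104 and 101 in induced plants, against 68.0, 92.3 and 90.5 in not induced plants. The groups overlapped at 6 h and were apart at 12 h and 24 h. The log2 changes at 12 h and 24 h were 0.41 ± 0.13 (adjusted p = 0.0958) and 0.42 ± 0.13 (adjusted p = 0.0584), by limma. The F test call was lost with quantile normalization, with one median for all arrays, without an intensity trend, without induced 12 h replicate 1 or 2 and without not induced 12 h replicate 2, and SWEET1 was called at 12 h with array weights and at 24 h with the filter on dim probe sets and with the hybridisation covariate. Without induction SWEET1 was lower at 12 h than at 6 h, by a log2 change of -0.58 ± 0.13 (adjusted p = 0.0224, limma).

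The SWEET genes of the vacuolar membrane besides SWEET2 had smaller differences. SWEET17, a fructose transporter there, had 169, 208 and 222 in induced plants at 12 h, against 251, 290 and 251 in not induced plants. The groups were apart, and the log2 change of -0.41 ± 0.13 did not pass the test (adjusted p = 0.0795, limma). At 24 h its signals were 153, 179 and 174 in induced plants and 170, 223 and 223 in not induced plants, which overlapped. SWEET16 had 56.8, 30.8 and 30.0 in induced plants at 24 h, against 57.5, 47.9 and 45.0 in not induced plants. Its induced arrays included 1 as high as the not induced ones, and the log2 change was -0.41 ± 0.20 (adjusted p = 0.244, limma). SWEET17 was called at 12 h with one median for all arrays and with array weights, and SWEET16 at 24 h without induced 24 h replicate 1.

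Among the SWEET genes that export sucrose, SWEET11 (AT3G48740), of phloem loading in leaves, had signals of 707 to 1023 over the 18 arrays. At 24 h its signals were 803, 763 and 751 in induced plants, against 771, 763 and 754 in not induced plants. The groups overlapped, and the log2 change was 0.02, with a 95% interval of -0.22 to 0.26; its sign changes with one median for all arrays and with the hybridisation signal as a covariate. SWEET13 had 129, 106 and 97.1 in induced plants at 24 h, against 65.7, 87.6 and 82.4 in not induced plants. These groups were apart, with a log2 change of 0.49 ± 0.22 (adjusted p = 0.209, limma). SWEET14, of the same group, had signals of 7.57 to 19.1 over the arrays, and its log2 changes were -0.11, 0.53 and 0.37 at 6 h, 12 h and 24 h. SWEET10 lies next to SWEET13 on chromosome 5 in RefSeq's TAIR10.1 annotation, with no protein-coding gene between them, and was at background on 13 of 18 arrays.

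The remaining SWEET genes lay near background, and none was called. SWEET6 had signals of 7.33, 8.91 and 11.2 in induced plants at 6 h, against 1.15, 1.08 and 3.61 in not induced plants. All 3 not induced arrays and the lowest induced array were at background, the difference did not pass the test (adjusted p = 0.239, limma), and at 24 h the groups overlapped. SWEET7 had 3.45, 0.425 and 0.901 in induced plants at 24 h, all at background, against 5.21, 8.89 and 2.94 in not induced plants, with an adjusted p of 0.101 in limma. It was called there with array weights and without induced 24 h replicate 1. SWEET9, the transporter of nectar secretion, SWEET8, which is needed for the pollen wall, and SWEET3 had signals of at most 10.4, 9.93 and 8.39 on any array.

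Of the 7 CHX genes 1 was called, at 12 h and in the F test, where 4.84% and 10.5% of all probe sets were called. CHX16 (AT1G64170), a cation/proton exchanger, had 12.0, 8.93 and 18.3 in induced plants at 12 h, against 26.1, 31.5 and 20.4 in not induced plants. At 24 h it had 16.8, 23.6 and 18.5 in induced plants, against 29.8, 28.3 and 36.2 in not induced plants. At 6 h it had 18.5, 21.8 and 26.8 in induced plants and 17.9, 17.6 and 25.6 in not induced plants. The groups overlapped at 6 h, and the induced arrays lay below the not induced ones at 12 h and 24 h. The log2 change was -1.03 ± 0.28 (adjusted p = 0.0375, limma) at 12 h and -0.68 ± 0.28 (adjusted p = 0.155) at 24 h. The 12 h call was lost in 5 of 27 alternatives, with an adjusted p up to 0.208: with only the 12 h arrays, and without induced 12 h replicate 1 or 2 or not induced 12 h replicate 1 or 2. The F test call of CHX16 (adjusted p = 0.0343, limma) was also lost on leaving out any of these 4 arrays, any not induced 24 h array, or induced 24 h replicate 1 or 3.

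CHX20 (AT3G53720) is the exchanger of guard cells. Its 24 h means were 54.0 ± 9.12 in induced plants and 60.6 ± 7.38 in not induced plants (SD, n = 3 each), and the 95% interval of the log2 change was -0.51 to 0.17. Its groups overlapped at every time. CHX19 had signals of 2.24 to 16.9 and CHX6B of 0.406 to 11.5 over the 18 arrays, and neither was called. CHX15, CHX21 and chx28 reached at most 2.86, 4.67 and 2.82, and on every array each lay at or below the background level of that same array, so their changes could not be measured here.

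None of the 7 glutamate receptor-like genes was called at any time. Of all probe sets 0.967%, 4.84% and 8.33% were called at 6 h, 12 h and 24 h. GLR3.3 (AT1G42540) and GLR3.6, which carry long-distance wound signals, were above background on all arrays. At 6 h GLR3.3 had 79.4, 80.0 and 76.2 in induced plants, against 58.1, 68.8 and 69.3 in not induced plants. These groups were apart, but the log2 change of 0.27 ± 0.12 did not pass the test (adjusted p = 0.362, limma). At 24 h it had 67.1 ± 2.88 in induced plants and 63.2 ± 3.56 in not induced plants (SD, n = 3 each). The 95% interval of its 24 h log2 change was -0.17 to 0.35. GLR3.6 had 34.4 ± 2.87 in induced plants and 29.1 ± 7.78 in not induced plants at 24 h, with overlapping arrays.

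GLR2.9, GLR2.8 and GLR2.7 follow each other on chromosome 2 in the same annotation, with no protein-coding gene between neighbours. GLR2.7 was above background on 16 of 18 arrays, GLR2.8 on 12 and GLR2.9 on 1. GLR2.7 had 15.4, 14.8 and 9.53 in induced plants at 6 h, against 17.4, 21.3 and 20.5 in not induced plants. At 24 h it had 17.2, 26.1 and 19.3 in induced plants, against 16.3, 15.7 and 12.4 in not induced plants. The induced arrays lay below at 6 h and above at 24 h, and neither difference passed the test (adjusted p = 0.736 and 0.742, limma). GLR1.4 and GLR3.5 had log2 changes of -0.48 to 0.02 and of -0.45 to -0.11 over the 3 times. PUP15, the purine permease measured, had 11.8, 10.5 and 14.4 in induced plants at 6 h, against 16.4, 14.9 and 16.6 in not induced plants, with an adjusted p of 0.754 in limma. Its groups overlapped at 12 h and 24 h, with log2 changes of 0.16 and -0.60, and neither passed the test. At 24 h 1 of its 3 induced arrays was at background.

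**Figure D4:**
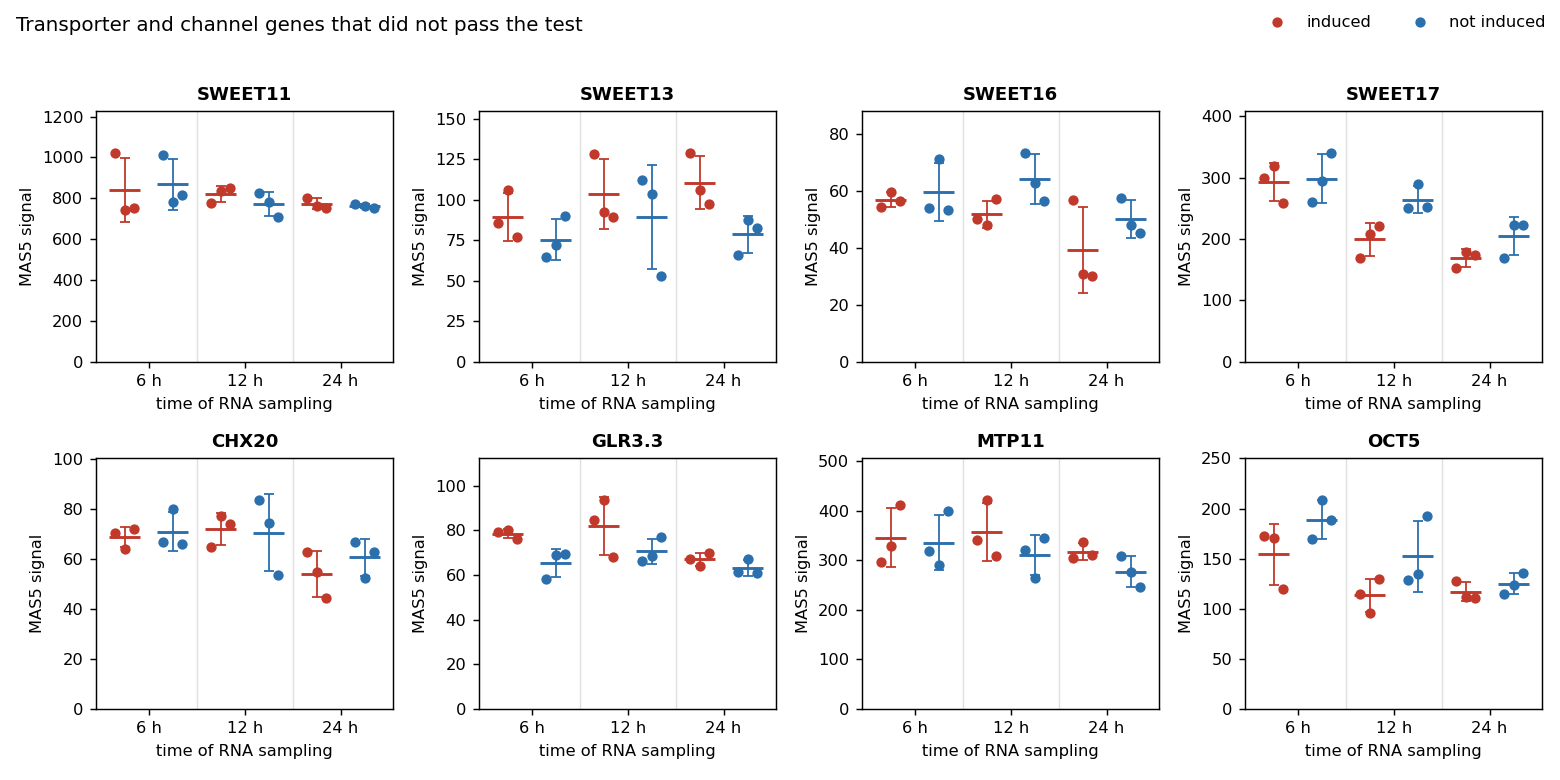
MAS5 signals by time (horizontal axis, h) of 8 genes above background on all arrays and not called on induction at any time, in induced (red) and not induced (blue) plants. Dots are arrays, and lines with bars are means ± SD of 3 arrays. The means of SWEET11 lie between 763 and 870 in both groups, and SWEET17 is lower in induced plants at 12 h, with 200 ± 27.1 against 264 ± 22.5.

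Responses at different times were then compared by testing the difference between them. The response at 12 h minus that at 6 h was called for 0 of 35 genes (background 0.193%), with 4 of them, and 2415 of all probe sets, at an unadjusted p under 0.05. The response at 24 h minus that at 6 h was called for 0 of 35 (background 1.61%), again with 4 of them, and 3211 of all probe sets, at an unadjusted p under 0.05. For 24 h minus 12 h, limma called 0 of 35 genes (background 0%), with 1 gene, and 1591 of all probe sets, at an unadjusted p under 0.05. That ZIP6 and OCT1 passed the test at 12 h and 24 h and not at 6 h is therefore not shown to be a difference between times. For ZIP6 the response at 24 h minus that at 6 h was 0.62, with a 95% interval of 0.12 to 1.11 and an adjusted p of 0.224 (limma). For SWEET2 the response at 12 h minus that at 6 h was -0.66, with an interval of -1.05 to -0.26 and an adjusted p of 0.167 (limma).

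Change with time was also read in the plants that were not induced. At 12 h relative to 6 h, 2 of 35 genes were called, SWEET4 and SWEET1, both lower at 12 h, against a background of 2.91%. The SWEET1 call was lost in 6 of 28 alternatives and the SWEET4 call in 4, among them the fit without an intensity trend and the fit with only the arrays compared; both were also lost on leaving out some single arrays, not induced 12 h replicate 3 for SWEET4, and not induced 6 h replicate 1 or 3 or 12 h replicate 1 or 2 for SWEET1. SWEET4 was also lost with the hybridisation controls as a covariate. The adjusted p reached 0.09 for SWEET1 and 0.0647 for SWEET4. At 24 h relative to 12 h 0 of 35 were called, against a background of 1.45%, with 3 of them, and 2483 of all probe sets, at an unadjusted p under 0.05. The lowest adjusted p was 0.0550, for SWEET2, whose not induced means were 122 ± 4.74, 106 ± 20.0 and 72.5 ± 3.63 at 6 h, 12 h and 24 h (SD, n = 3 each). These comparisons and those on induction at the same times share the not induced arrays.

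Further transporters outside the naming rule were sought by other family names, and 4 genes had such a symbol in the annotation used here. This list was drawn from annotated symbols, so every gene in it was measured. TMT1, a glucose importer of the vacuolar membrane, fell at 12 h, with 128 ± 13.7 in induced plants and 194 ± 16.3 in not induced plants (SD, n = 3 each). Its log2 change was -0.60 (adjusted p = 0.00569, limma), and this call was kept in all 28 alternatives. At 24 h it had 154 ± 22.1 in induced plants and 207 ± 32.7 in not induced plants, a log2 change of -0.42 (adjusted p = 0.0417, limma) that was lost in 8 of 28 alternatives, with an adjusted p up to 0.206. These included leaving out induced 24 h replicate 1 or 2, not induced 24 h replicate 2 or 3, or not induced 12 h replicate 1. TMT2, of the same family, rose at 24 h, with 125 ± 3.70 in induced plants and 95.5 ± 2.78 in not induced plants. Its log2 change was 0.39 (adjusted p = 0.00964, limma), and it was lost only without induced 24 h replicate 3, at an adjusted p of 0.0502. Of the 4, therefore, 1 fell at 12 h, and 1 rose and 1 fell at 24 h, while TMT3 and NRAMP5 did not pass at any time. Of all probe sets 4.84% were called at 12 h and 8.33% at 24 h. Of 39 symbols listed for genes of the response to nutrient supply, 1 was measured, APS3. Its log2 changes of 0.27, -0.13 and -0.30 at 6 h, 12 h and 24 h did not pass. The symbol PS2 also matched a probe set, but there it stands for presenilin-2, so it was left out.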

How the data were processed

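Transcript levels were measured on 18 ATH1 arrays of total RNA. The authors deposited linear intensity values: MAS5 signals from GCOS, as the submitters' processing notes name them. For software versions and the scaling target, nothing was given in the sources used here. Of 22810 probe sets 64 controls were left out. Names came from the platform annotation, where 13513 of 22746 probe sets had 1 gene, 503 several and 8730 none; all 35 symbols were the same in RefSeq. The rule matched 38 probe sets, of which 2 with several genes and NRT2.5 were left out. No probe set was named DUO1, so its transcript was not analysed here.

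The log2 values entered limma 3.58.1, run in R 4.3.3 with statmod 1.5.0. The model had a mean for each of the 6 groups, an intensity trend, 12 residual and 7.69 prior degrees of freedom, no filter, and Benjamini-Hochberg adjustment over all probe sets. As a check of the code only, the fit was also run on simulated data with rises put in at 24 h. This does not bear on the calls given here. Signals and figures were handled with matplotlib 3.10.9, scipy 1.17.1, pandas 2.3.3 and numpy 2.4.6 under Python 3.11.15. Folds against a group at background on all 3 arrays are lower bounds. Nothing in the labels ties replicates to separate cultures or plates; p-values therefore reflect the spread between these arrays, which may be technical, and 3 arrays a group limit the precision.

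The members, lists and background definition were chosen with earlier results of these data known. Named were all members past the threshold, the member of each family with the highest mean signal, and listed genes past the threshold; the other members were named after their values were seen. Alternatives were quantile normalization, 1 median for all arrays, an offset of 5, signals raised to background, a filter on dim probe sets (40th percentile), no trend, weights per array, a block for the replicate number, fits of the compared arrays alone, and omission of each array in turn. The hybridisation covariate was chosen after seeing the data.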

Additional observations from a re-analysis of the deposited data

Results flagged for a closer look

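GLR2.7 was flagged because its arrays separated in opposite directions at different times. How many of all probe sets did so was not counted. All 3 induced arrays lay below the not induced arrays at 6 h and all 3 lay above them at 24 h. The response at 24 h minus that at 6 h was 1.09 on the log2 scale, and the test of this difference did not pass (adjusted p = 0.643, limma). GLR2.7 was at background on 2 of 18 arrays.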

How the results depend on the processing

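Of 28 alternatives, 18 left out 1 array each. For the alternatives the share of all probe sets called is not given here, so the counts cannot be set against it. At 6 h the count of genes called was 1 with array weights (ZIP6), against 0. At 12 h it was 2 with the filter on dim probe sets (SWEET2 and ZIP6), against 4; this filter kept 14 of the 35 genes, so fewer were tested. The difference in response between 6 h and 24 h was called for 1 gene, SWEET4, with the filter and with signals raised to background. Without induction, 12 h relative to 6 h gave 0 genes without an intensity trend and 0 with only the arrays compared, and 1 with the hybridisation covariate, against 2, and 24 h relative to 12 h gave 1 (SWEET2) with the filter and with array weights, against 0. Leaving out 1 array gave 0 to 1 genes at 6 h, 2 to 4 at 12 h, 3 to 6 at 24 h, 4 to 7 in the F test, 0 to 1 for the difference between 6 h and 24 h, 0 for both other differences, 1 to 2 for 12 h relative to 6 h without induction and 0 to 1 for 24 h relative to 12 h. The 6 genes at 24 h were reached without induced 24 h replicate 1, which added SWEET7 and SWEET16. The log2 change of SWEET11 at 24 h, 0.02, was -0.043 with one median for all arrays, -0.078 with the hybridisation covariate, and -0.010 (without induced 24 h replicate 1) to 0.037 when arrays were left out. Why these counts and values moved was not tested. Of the 12 h calls, 1 of 3 were up with quantile normalization and 2 of 5 with one median for all arrays, against 2 of 4.

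Induced and not induced arrays of the same time and replicate number did not deviate together from their group means (correlations of -0.133 to 0.0969). This cannot show whether the numbers pair arrays in the design, which the labels do not say. With the replicate block the counts were 0, 4 and 4 at 6 h, 12 h and 24 h, with SWEET17 in place of OCT1 at 12 h, and 7 in the F test. The F test call of SWEET4 was lost without an intensity trend. The F test uses all arrays and was not repeated on only the arrays compared. Signals near background limit 19 of the 35 genes.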
